A study of Mus musculus with 7 samples.

Results

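The 10 genes described here encode adhesion and gap junction proteins of the contact between the oocyte and its granulosa cells. They are the cadherins Cdh1, Cdh2, Cdh3 and Cdh17, the catenins Ctnna1, Ctnnb1 and Ctnnd1, and the connexins Gja1, Gja4 and Gjc1. They were chosen by name, and each had 1 entry among the 22877 genes of the expression table. The RNA was that of oocytes enclosed in secondary follicles, from C57BL/6J females 8 weeks old, with 5 oocytes pooled in each library. The labels list 3 libraries of Mfn1-/- oocytes and 4 of wild-type (WT) oocytes. In Mfn1-/- mice a floxed Mfn1 gene (Mfn1 flox/flox) was deleted by Zp3-Cre, in which the promoter of Zp3, a zona pellucida gene of growing oocytes, drives Cre; granulosa cells of these mice therefore keep Mfn1, and the WT mice were littermates. Oocytes were freed from follicles with collagenase and then Accutase, so that granulosa cells were to be removed before lysis. The sources used here do not say whether the libraries of a genotype came from separate mice.

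Cadherins hold neighbouring cells together by binding cadherins on the opposing membrane, and catenins tie their cytoplasmic tails to actin. E-cadherin (Cdh1) is the cadherin of the oocyte surface, whereas N-cadherin (Cdh2) is made mainly by granulosa cells. Connexins form the channels of gap junctions, through which granulosa cells feed the oocyte: connexin 37 (Gja4) is the oocyte's own connexin, and connexin 43 (Gja1) joins granulosa cells to each other. These contacts sit at the tips of transzonal projections, thin granulosa cell processes that cross the zona pellucida.

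For every gene 1 mean of normalized read counts was available for each genotype, and no value of a single library was used. The spread between libraries is therefore unknown: no difference below carries an error or a test, and the means describe these pools only. Depth per library is unknown too, as the paper gives only a total of reads over its samples. The lowest mean in the table was 0.01, shared by 937 genes (Mfn1-/-) and 922 (WT). Above that offset the means of 1716 low genes followed the genomic span of the gene, introns included (correlation across genes -0.93 on log scales), more closely than the length of its merged exons (-0.63). Each mean was therefore also turned into RPM (reads scaled to the same total in each library), by subtracting 0.01 and multiplying by the span in kb. Levels were compared between genes as RPM per kb of the longest transcript, whereas the 2 genes named from each list below are those with the highest deposited means, which is no order of level. Dividing by the transcript length treats every read as lying in exons. Whether reads in introns were counted is not given in the sources used here. Any such reads would raise the level of genes with long introns. Differences between genotypes are given as log2 of the Mfn1-/- mean over the WT mean after adding 0.1 to both. This understates differences of genes with a low mean, whether the mean is low from few reads or from a long span. For 6226 genes the mean over the libraries reached 1, and their median difference on this scale was 0.16, and a value from which that median was subtracted is called centred.

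Mfn1 itself, which encodes the outer mitochondrial membrane fusion protein mitofusin 1, had a mean of 0.0577 (Mfn1-/-) and 0.616 (WT). The gene lies on chromosome 3, from 32529465 to 32579239. The means equal 2.37 and 30.2 RPM, at a log2 difference of -2.18, in the direction that the genotype labels give. Its low level in the Mfn1-/- pools was not 0.

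None of the 10 genes differed 2-fold between genotypes on the scale with 0.1 added (0 of 10). Of all 22877 genes, 4.89% were at least 2-fold higher in Mfn1-/- oocytes and 2.76% at least 2-fold lower, 7.65% in either direction. With these shares a count of 0 among 10 genes is near the background. It is also limited by the scale. Cdh2, Gjc1 and Gja1, with WT means of 0.11, 0.047 and 0.0182, could not have been 2-fold lower even at the lowest mean of 0.01. Cdh2 had 22.0 RPM in WT oocytes over a span of 220.4 kb, so its low mean does not stand for few reads. The mean was lower in Mfn1-/- oocytes for 7 of the 10 genes and higher for Ctnnb1, Ctnnd1 and Gjc1, with a median log2 difference of -0.08. Across the table as a whole, 42.9% of genes had a lower mean in Mfn1-/- oocytes and the median was 0.04; where the mean reached 1 the share was 34.2%. After centring, 9 of the 10 genes were lower, since Ctnnb1 and Ctnnd1 then lay below 0, and the median was -0.24.

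**Figure D1:**
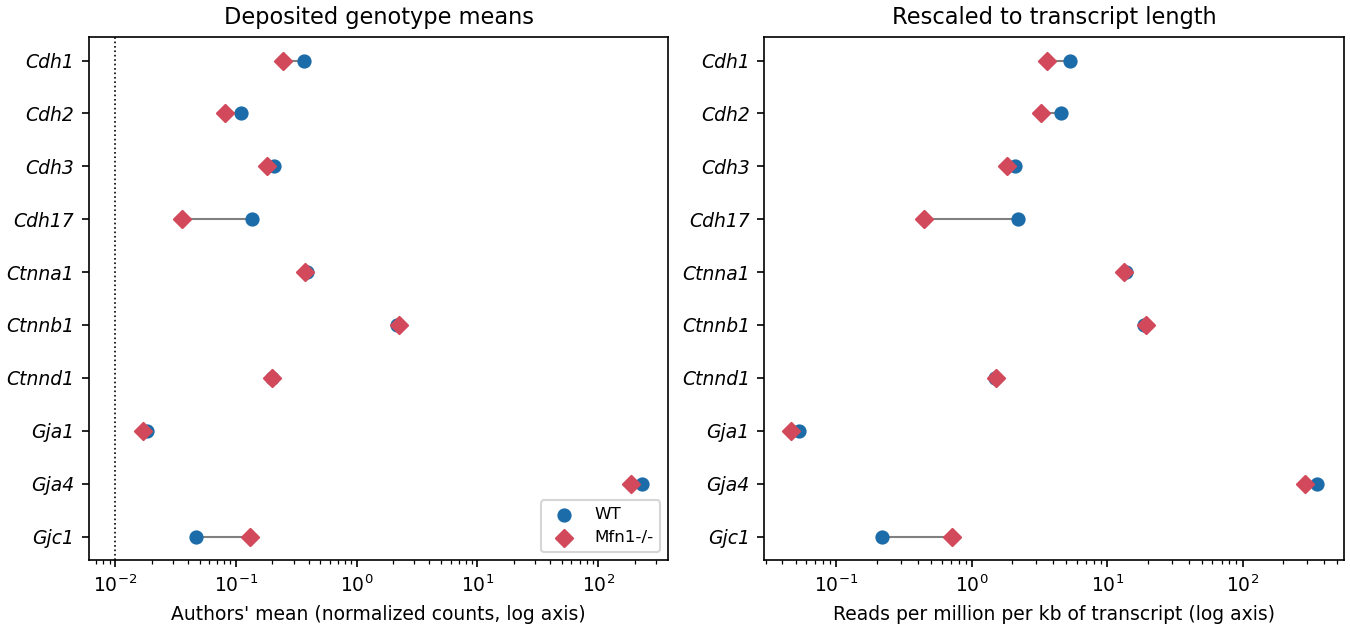
The left panel plots the deposited mean of each gene in WT (circles) and Mfn1-/- oocytes (diamonds) on a log axis, with a dotted line at the lowest mean of 0.01, and the right panel plots the level in RPM per kb of transcript, also on a log axis; lines join the 2 genotypes of a gene and no error can be drawn. Cdh17 and Gjc1 have the widest gaps, in opposite directions, and Gja4 lies far to the right of every other gene.

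Each of the 4 cadherins had the lower mean in Mfn1-/- oocytes (median log2 difference -0.31), and Cdh17 differed most. Summed over the 4 genes, cadherin reads were 41.2 RPM in Mfn1-/- and 62.5 RPM in WT oocytes, a ratio of 0.659. Cdh1 (ENSMUSG00000000303; GRCm38 chromosome 8, 106603351 to 106670246, plus strand) had a mean of 0.247 (Mfn1-/-) and 0.364 (WT), or 15.9 and 23.7 RPM. Its Mfn1-/- mean was 0.679 times the WT mean, a log2 difference of -0.42, or -0.58 when centred. Among all genes, 10.7% had a difference this low or lower, and 4.37% of genes with RPM within 2-fold of those of Cdh1 were at least 2-fold lower by the plain ratio. The mean of Cdh2, whose gene lies on chromosome 18, was 0.0817 (Mfn1-/-) and 0.11 (WT), a ratio of 0.743. Cdh2 thus had 15.8 against 22.0 RPM, with a log2 difference of -0.21. In pooled cells, fewer cells of a type and less RNA per cell cannot be told apart.

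P-cadherin (Cdh3; chromosome 8, 106510891 to 106557297, plus strand) lies on the same strand just before Cdh1. Its means of 0.182 (Mfn1-/-) and 0.207 (WT) differed least among the cadherins, with a log2 difference of -0.12. Cdh1, Cdh2 and Cdh3 made up 44.6%, 38.0% and 17.4% of the summed level per kb of these 3 classical cadherins in WT oocytes, and 41.3%, 37.7% and 21% in Mfn1-/- oocytes. These shares depend on the length used, since the merged exons of Cdh2 measure 8066 bases against 4843 in its longest transcript, and those of Cdh1 4574 against 4430. Cdh2 also has the longest span of the 3, at 220.4 kb, and the part of intron reads in its share was not tested.

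Cdh17 (chromosome 4, 11758147 to 11817895, plus strand) encodes LI-cadherin, a cadherin of liver and intestine that has a short tail and does not need catenins for adhesion. Its mean was 0.0358 (Mfn1-/-) and 0.137 (WT), or 1.54 and 7.59 RPM. The log2 difference was -0.80 with 0.1 added, -0.96 when centred and -1.94 as the plain ratio of the means, which was 0.261. In RPM with 1 added it was -1.76, so that whether Cdh17 passed 2-fold depended on the scale. On that last scale 3.29% of 21895 genes were at least 2-fold higher in Mfn1-/- oocytes and 2.74% at least 2-fold lower, 6.03% in either direction, and Cdh17 was the 1 member past it. By the plain ratio 8.35% of all genes were at least 2-fold lower (21.1% in either direction), as were 7.72% of the 3614 genes whose RPM lay within 2-fold of those of Cdh17. No other gene of the annotation overlapped Cdh1, Cdh3 or Cdh17, and none shared a near-identical stretch of 75 bases with them; Cdh2 has an antisense gene within it.

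**Figure D2:**
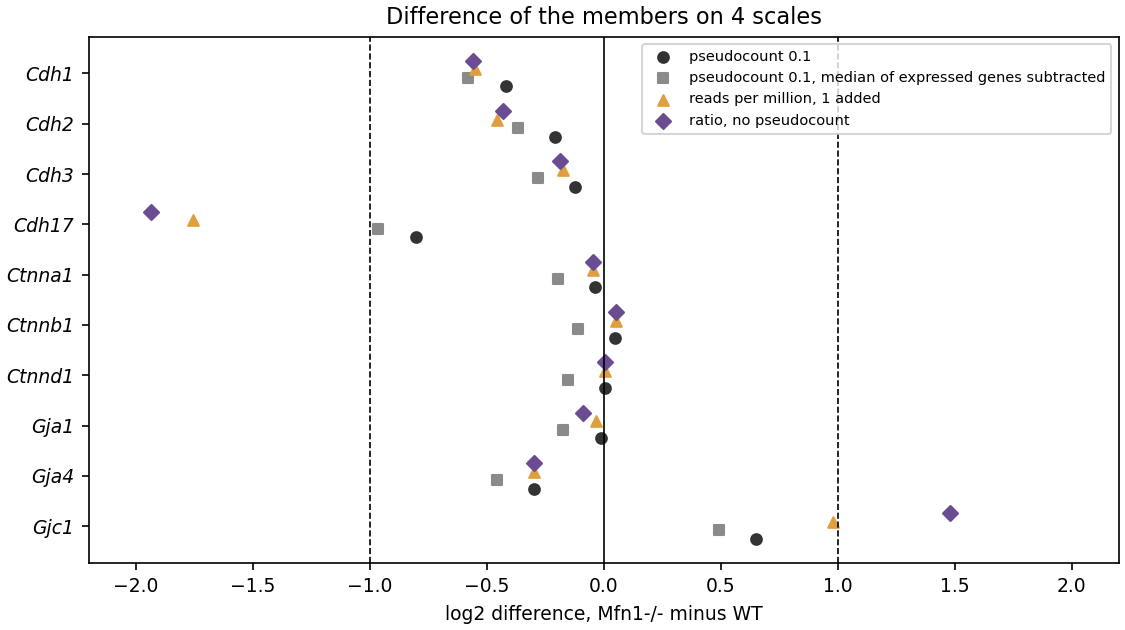
The log2 difference between Mfn1-/- and WT oocytes is plotted for each of the 10 genes on 4 scales (circles, 0.1 added to both means; squares, the same with the median of genes with a mean of at least 1 subtracted; triangles, RPM with 1 added; diamonds, plain ratio of the means), with dashed lines at 2-fold. Cdh17 passes 2-fold on the last 2 scales and Gjc1 on the plain ratio only, while Ctnnb1 and Ctnnd1 change side with centring.

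The 3 catenins had nearly equal means in both genotypes. Ctnnb1 (chromosome 9, 120929216 to 120960507, plus strand) encodes beta-catenin, which binds the cadherin tail and also acts in Wnt signalling. Its mean was 2.25 (Mfn1-/-) and 2.17 (WT), or 70.1 and 67.6 RPM, a log2 difference of 0.05. Alpha-E-catenin, the link to actin, is encoded by Ctnna1 on chromosome 18, which had means of 0.375 and 0.387, a log2 difference of -0.04. Ctnnd1 (chromosome 2, 84600071 to 84650765, minus strand) encodes p120-catenin, which keeps cadherins at the membrane. Its means were 0.199 (Mfn1-/-) and 0.198 (WT). When centred, the differences were -0.11 for Ctnnb1, -0.20 for Ctnna1 and -0.15 for Ctnnd1.

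The summed reads of the 3 catenins were 129 RPM in Mfn1-/- and 128 RPM in WT oocytes, a ratio of 1.01, against 0.659 for the 4 cadherins. The catenin genes are less free of overlaps than the cadherins. Lrrtm2 lies within Ctnna1 on the opposite strand, and had means of 0.503 (Mfn1-/-) and 1.37 (WT). Ulk4 and an antisense gene overlap Ctnnb1 on the opposite strand. Ctnnd1 is covered over 49327 bases by Gm28635 on the same strand, which shares an identical stretch of 3020 bases with it. How the counting assigned reads where genes overlap is not given in the sources used here. Reads of these pairs may thus have been divided, left out or given to the other gene, and the level of Ctnnd1 in particular is uncertain.

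The connexins held both the most and the least abundant of the 10 genes, Gja4 and Gja1. The RefSeq promoter table held the promoters of 4 of the 10 genes, and those of Gja4 and Gja1 are shown because these genes stand at opposite ends of the order. Each runs 5′ to 3′ along the gene's strand from 250 bases before to 50 bases after the start (GRCm38.p6), at chr4:127313990-127314289 on the minus strand for Gja4 and at chr10:56377050-56377349 on the plus strand for Gja1. Capitals mark the E-box, the letters CANNTG, bound by basic helix-loop-helix proteins such as the oocyte factor FIGLA.
Gja4: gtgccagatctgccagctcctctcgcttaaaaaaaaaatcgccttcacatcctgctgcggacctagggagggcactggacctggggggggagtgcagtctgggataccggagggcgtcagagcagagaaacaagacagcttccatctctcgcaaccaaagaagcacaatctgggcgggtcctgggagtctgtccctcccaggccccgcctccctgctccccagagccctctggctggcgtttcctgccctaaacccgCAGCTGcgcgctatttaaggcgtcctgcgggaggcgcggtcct
Gja1: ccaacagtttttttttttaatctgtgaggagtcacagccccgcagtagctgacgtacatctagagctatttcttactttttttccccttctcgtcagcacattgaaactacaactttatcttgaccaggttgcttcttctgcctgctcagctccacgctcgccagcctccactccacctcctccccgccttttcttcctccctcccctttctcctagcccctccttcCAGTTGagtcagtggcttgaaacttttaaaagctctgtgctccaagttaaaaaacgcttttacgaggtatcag
Each window held 1 E-box, CAGCTG with its first base at position 7 in Gja4 and CAGTTG at position -23 in Gja1, counted from the start as 0. The pattern CANNTG is its own reverse complement, so that a search of 1 strand covers both, and 72.3% of 32851 promoters of this length held at least 1. The Gja4 window had a GC content of 62% and 1 GC box (GGGCGG or CCGCCC), which 35.7% of promoters hold. The Gja1 window had a GC content of 47.7% and no GC box. A match of letters is a description of these windows and not a bound site.

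Gja4 (chromosome 4, 127311421 to 127314039, minus strand) had a mean of 187 (Mfn1-/-) and 230 (WT). These were 489.7 and 602.3 RPM. The Mfn1-/- mean was 0.813 times the WT mean, a log2 difference of -0.30, or -0.46 when centred. Of all genes, 14.9% had a difference as low or lower, and 1.12% of the 356 genes with RPM within 2-fold of those of Gja4 were at least 2-fold lower in Mfn1-/- oocytes. Per kb of transcript its level in WT oocytes ranked 164 in the table, above 99.3% of genes, and it made up 99.9% of the summed level of the 3 connexins. The sum over the 3 connexins was thus 492 against 603 RPM, a ratio of 0.816.

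Gja1 (chromosome 10, 56377330 to 56402513, plus strand) was close to the lowest value of the table in both genotypes, with means of 0.0171 (Mfn1-/-) and 0.0182 (WT). These correspond to 0.179 and 0.207 RPM, for which no fold is given. The increment most often seen among the lowest genes was 0.2 to 0.22 RPM summed over the libraries of a genotype, and the Gja1 values were 2.55 such increments (Mfn1-/-) and 3.93 (WT). At this level no difference in Gja1 was detectable, and the pools were of oocytes, not of the granulosa cells that are the main source of connexin 43.

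Gjc1 (chromosome 11, 102799579 to 102819700, minus strand) encodes connexin 45 and was the only connexin with a higher mean in Mfn1-/- oocytes. Its mean was 0.131 (Mfn1-/-) and 0.047 (WT), or 2.44 and 0.745 RPM. The log2 difference was 0.65 with 0.1 added, 0.49 when centred and 0.98 in RPM with 1 added. As the plain ratio it was 2.79-fold. By that ratio 12.8% of all genes, and 16.3% of the 3182 genes with RPM within 2-fold of those of Gjc1, were at least 2-fold higher in Mfn1-/- oocytes. At such a low level a 2-fold higher mean was thus a common value.

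**Figure D3:**
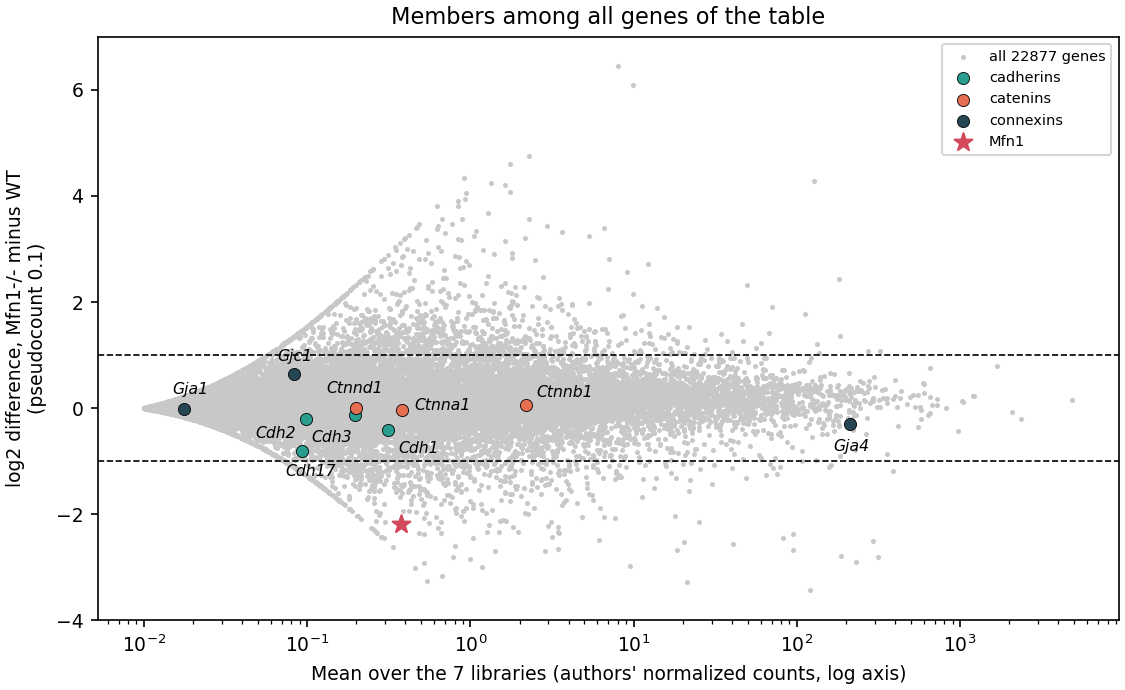
Each grey point is 1 of the 22877 genes, placed by its mean over the 7 libraries (x axis, authors' normalized counts, log scale) and its log2 difference between Mfn1-/- and WT oocytes with 0.1 added (y axis); cadherins, catenins, connexins and Mfn1 are coloured, and dashed lines mark 2-fold. All 10 genes lie between the dashed lines within the cloud of genes of like mean, whereas Mfn1 lies below the lower dashed line at -2.18.

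Per kb of transcript, the order of levels in WT oocytes was Gja4, Ctnnb1, Ctnna1, Cdh1, Cdh2, Cdh17, Cdh3, Ctnnd1, Gjc1 and Gja1. Gja4 stood at 357.5 RPM per kb, 19.2 times the level of Ctnnb1 at 18.7. Ctnna1 followed at 13.7, and Cdh1 and Cdh2 at 5.35 and 4.55. Cdh17, Cdh3 and Ctnnd1 lay between 2.19 and 1.50, Gjc1 at 0.218 and Gja1 at 0.0531. With no spread between libraries, neighbours such as Cdh1 and Cdh2, or Cdh17 and Cdh3, cannot be told apart in this order. The order also depends on the length: by the means as deposited Cdh2 came eighth, and per kb of merged exons Cdh3 came before Cdh17, while Gja4, Ctnnb1, Ctnna1 and Cdh1 came first in both. In Mfn1-/- oocytes Gja4 stood at 290.6 and Cdh17 at 0.445, below Gjc1 at 0.713, and the other genes kept their order. In the WT order the levels of the 3 catenins spanned 1.50 to 18.7. On this scale Ctnnb1 and Ctnna1 each stood above every cadherin. As deposited, the WT means of Ctnna1 and Cdh1 were close, at 0.387 and 0.364. The part of intron reads in these levels was not tested.

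The genes whose pair of means lay nearest to that of Cdh1, by distance over the log2 means of both genotypes (2 values), were Hnmt, Gm8137 and Syna. Hnmt, a histamine methyltransferase gene, had means of 0.248 and 0.365. Nearest to Gja4 were AU022751 (180 and 232), Gm5434 (181 and 221) and Rgs2 (191 and 216), the last a regulator of G protein signalling. With 2 values a gene, likeness says only that the means are alike.

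The other cadherins were low. Of 15 other classical and type II cadherins, 13 were in the table and none had a mean of at least 1. None could differ 2-fold with 0.1 added, since no mean exceeded 0.03 (Mfn1-/-) or 0.0518 (WT). By the plain ratio 1 was at least 2-fold lower and 0 higher, against 8.35% and 12.8% of all genes. The mean was lower in Mfn1-/- oocytes for 9 and higher for 4. The median log2 difference was -0.01 with 0.1 added and -0.10 as the plain ratio. Cdh24 (0.0203 against 0.0518 in WT oocytes) and Cdh15 (0.03 and 0.0375) had the highest deposited means. Of 28 further members of the cadherin superfamily, 13 were in the table, with none at 2-fold with 0.1 added. By the plain ratio 2 were at least 2-fold lower and 0 higher. The highest deposited means were those of Fat1, a giant atypical cadherin, with 0.0823 and 0.199, and of the desmosomal cadherin gene Dsc2, with 0.0815 and 0.151. Their log2 differences were -0.71 and -0.47. No other gene of this list had means high enough for a 2-fold call with 0.1 added. The summed reads of this second list were 26.6 against 44.8 RPM, and those of the first 12.4 against 16.8.

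Among 12 other catenins and plakophilins, 11 were in the table and none differed 2-fold, with a median log2 difference of 0.07. Ctnnal1, an alpha-catenin relative, had means of 1.01 (Mfn1-/-) and 1.52 (WT), and Ctnnbl1, which has armadillo-like repeats but is a splicing-associated protein, had 1.37 and 1.10. The log2 differences were -0.55 and 0.29. The plakoglobin gene Jup, whose product can take the place of beta-catenin on cadherin tails, was named after its values were seen and had means of 0.224 and 0.211.

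Of 17 other connexin genes, 9 were in the table and none differed 2-fold, with a median of -0.03. Gja10 had means of 1.02 (Mfn1-/-) and 0.542 (WT), a log2 difference of 0.80, and Gjb1, connexin 32, had 0.373 and 0.4. Their summed reads were 15.2 and 12.1 RPM, small beside those of Gja4. The pannexins form channels of a similar build that rarely join cells. Panx1 had means of 0.824 and 0.543, a log2 difference of 0.52, and Panx2 had 0.0469 and 0.213, a log2 difference of -1.09, which made it 1 of 2 pannexins in the table at least 2-fold lower. An antisense gene overlaps Panx2.

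**Figure D4:**
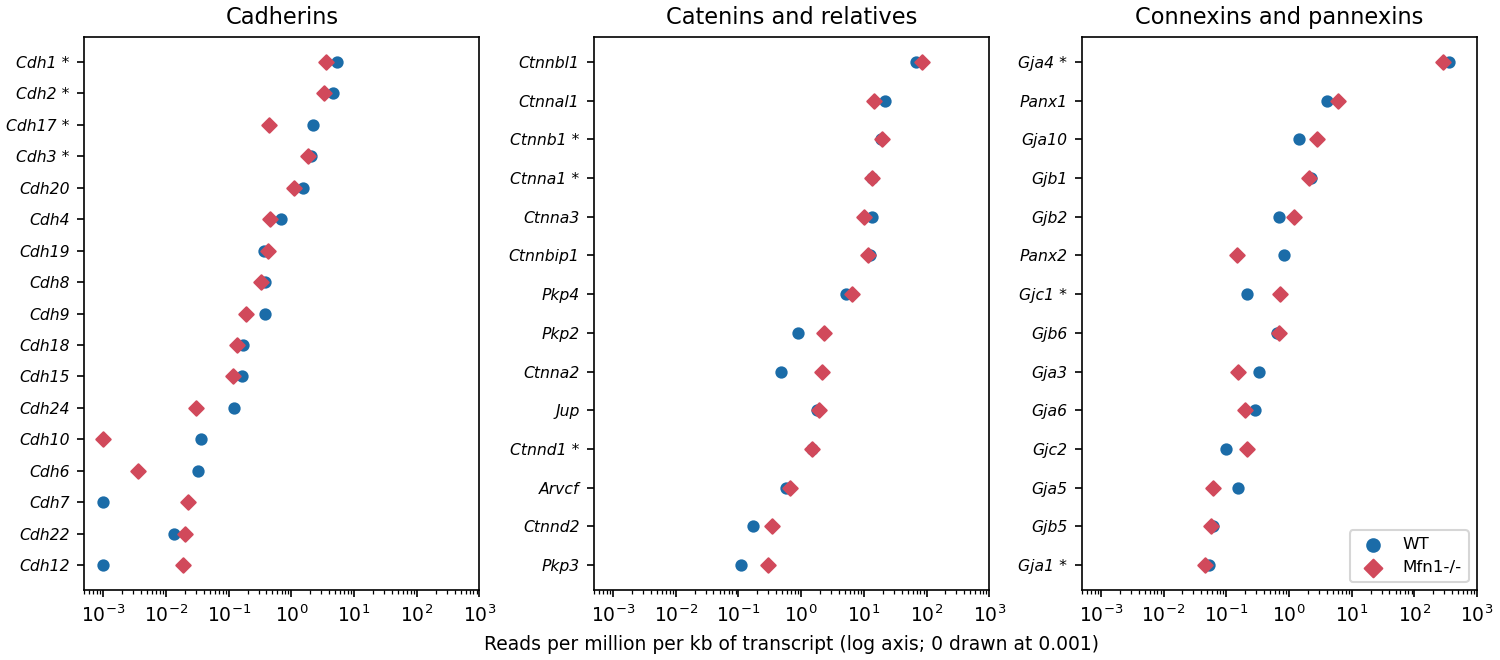
The level of each gene in RPM per kb of transcript (log axes, values of 0 drawn at 0.001) is plotted for classical and type II cadherins, catenins and relatives, and connexins and pannexins, in WT (circles) and Mfn1-/- oocytes (diamonds), ordered by the higher level; asterisks mark the 10 genes described here. In WT oocytes the 4 cadherins described here are the highest of the cadherins shown, and Gja4 is far above every other connexin.

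Genes that act with these proteins were counted in the same way, with 0.1 added, against the 4.89% of genes higher and 2.76% lower in the table. Of 22 adherens junction partners 21 were in the table, with 1 at least 2-fold higher, none lower and a median of -0.03. Zyx, which encodes the junction and focal adhesion protein zyxin and was named after its values were seen, had means of 1.03 (Mfn1-/-) and 0.248 (WT), a log2 difference of 1.70; it is overlapped by Epha1 and an antisense gene. The highest deposited means in this list were those of Pdlim1 (1.97 and 1.38) and of Nectin3 (1.33 and 1.36), a nectin of cell contacts. All 20 genes of cadherin turnover and phosphorylation were in the table, none differed 2-fold and the median was 0.02. Rab11a, a small GTPase of recycling endosomes, had means of 11.9 and 10.9, and the kinase gene Csnk1a1 had 3.09 and 2.58.

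Of 9 repressors of E-cadherin transcription 8 were in the table, with 1 at least 2-fold higher and a median of 0.02. The 3 Snail genes did not share a direction. Snai3 had means of 4.71 (Mfn1-/-) and 9.35 (WT), a log2 difference of -0.97, and Snai1 had 2.17 and 1.16, a log2 difference of 0.85. Snai2, named after its values were seen, had 0.249 and 0.0316, a log2 difference of 1.41 at 0.845 against 0.0763 RPM. Gm20388 overlaps Snai3 on the opposite strand.

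All 17 genes of the beta-catenin destruction complex and its TCF partners were in the table, with none at 2-fold and a median of 0.07. Pygo2, a coactivator with beta-catenin, had means of 1.97 and 1.51, and the ubiquitin ligase subunit gene Btrc had 1.27 and 1.19. Of 14 connexin regulators 13 were in the table and none differed 2-fold (median -0.01). The kinase gene Mapk3 had means of 36.9 and 44.4. All 14 genes of transzonal projections were in the table, with none at 2-fold and a median of -0.07. The highest deposited means were those of Rdx, a linker of membrane to actin (35.2 against 41.3 in WT oocytes), and of the tetraspanin gene Cd9 (13.4 and 14).

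**Figure D5:**
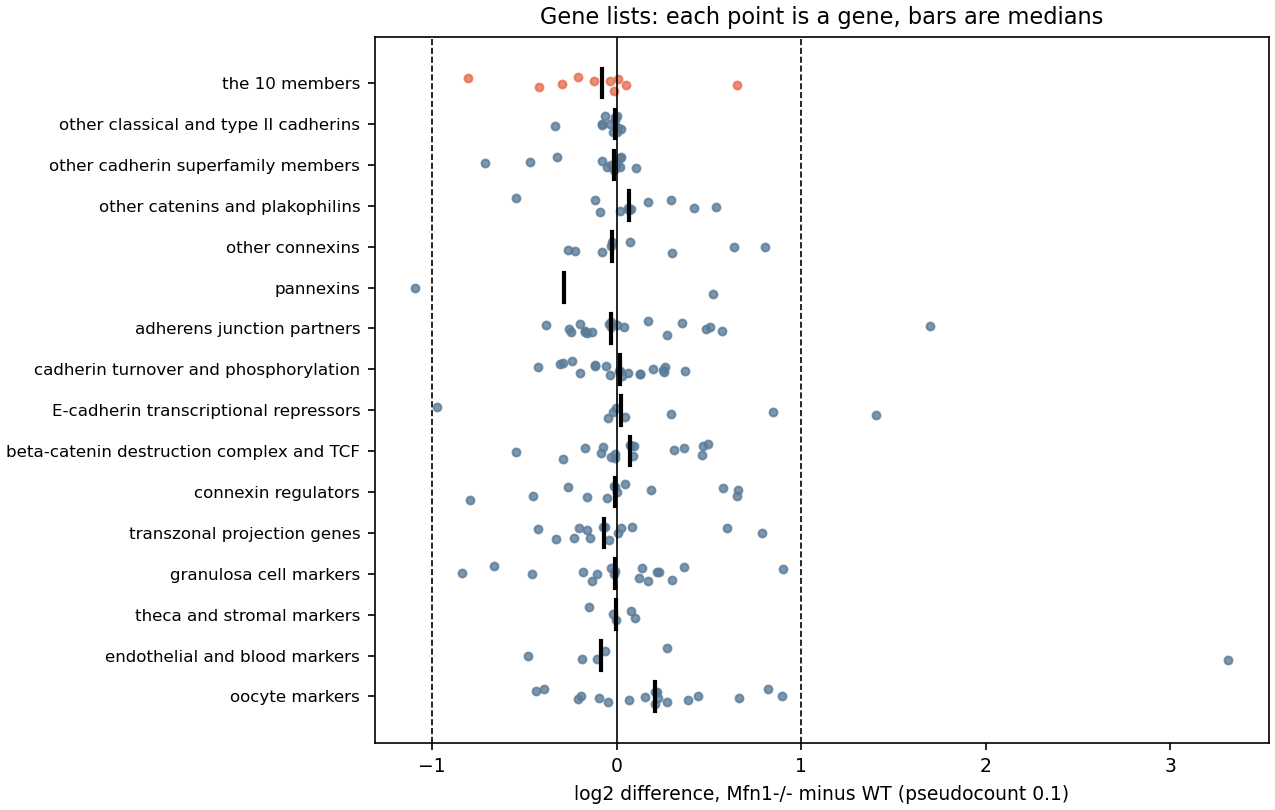
Each point is 1 gene of a list, placed by its log2 difference between Mfn1-/- and WT oocytes with 0.1 added, and black bars are list medians; dashed lines mark 2-fold. Medians of the lists of adhesion, junction and regulator genes lie between -0.28 (2 pannexins) and 0.07, and single genes beyond 2-fold are Panx2, Zyx, Snai2 and Cd68.

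Most markers of the cells around the oocyte were low but not absent. The granulosa cell marker Serpine2 was not low, at 116.5 (Mfn1-/-) and 94.4 (WT) RPM per kb of transcript. Of 19 granulosa cell markers 17 were in the table, 8 with a higher and 9 with a lower mean in Mfn1-/- oocytes, and none differed 2-fold with 0.1 added (2 higher and 2 lower by the plain ratio). Their summed reads were 433 RPM in Mfn1-/- and 376 RPM in WT oocytes, of which Serpine2 gave 395 and 320. The means of Serpine2 were 5.91 and 4.79, and those of the inhibin gene Inha 1.87 and 0.954. The defining markers, also named outside the rule, were near the lowest value of the table for Amh (0.0599 and 0.0241 RPM), Foxl2 (0.138 and 0.027) and Nr5a1 (0.0591 and 0.0766), and Fshr stood at 1.29 and 1.53. Cyp19a1, the aromatase gene, had 7.62 RPM (Mfn1-/-) and 18.7 (WT), and the nuclear receptor gene Nr5a2 had 10.3 and 19, both lower in Mfn1-/- oocytes as Cdh2 was, and both named after their values were seen. Of 12 theca and stromal markers 5 were in the table, with 3.01 against 2.74 RPM in all; the highest deposited means were those of Star (0.0845 and 0.105) and Ptch1 (0.0378 and 0.0304). Granulosa cells also express Cdh2 and Gja1, and the part of residual granulosa RNA in the levels of these genes was not tested.

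Of 12 endothelial and blood markers 6 were in the table, 2 with a higher and 4 with a lower mean in Mfn1-/- oocytes. Of these 6 genes, 1 was at least 2-fold higher. This was Cd68, a macrophage lysosome gene, with means of 7.58 (Mfn1-/-) and 0.672 (WT), a log2 difference of 3.31, while Cldn5, of endothelial tight junctions, had 0.23 and 0.173. All 18 oocyte markers were in the table, 17 with a mean of at least 1. The Mfn1-/- mean was above the WT mean for 12 of these 18 genes and below it for 6, at a median log2 difference of 0.21, or 0.05 when centred, and none differed 2-fold. The highest deposited means were those of H1foo, the oocyte linker histone gene (813 and 1100), and of Ooep, of the subcortical maternal complex (1310 and 1120). With a log2 difference of -0.30, Gja4 lay below every oocyte marker but H1foo, at -0.44, and Kit, at -0.39. Kit was named after its values were seen.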

How the data were processed

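Smart-Seq2 libraries of poly(A) RNA were sequenced as 75-base read pairs. The authors removed adapters (Cutadapt) and poor reads (FASTX-Toolkit), aligned the rest to GRCm38/mm10 with STAR, and tested gene counts with DESeq2; the normalization of the deposited means, the counter, its annotation and its strand setting are not given in the sources used here. The deposited values used here were the authors' normalized signal, as 1 mean of normalized counts for each genotype and a total over libraries. In 100% of genes this total equalled 3 Mfn1-/- plus 4 WT means within 1%, although the study gives 3 libraries a genotype. The deposited p-values and adjusted p-values, the expression ratio and the signed fold score of the authors' own comparison were not used. Per-sample columns of no listed sample numbered 0.

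The analysis had been planned for normalized counts; the values behaved as RPM per kb of genomic span plus 0.01 (recovered sums of 764421 RPM for Mfn1-/- and 745034 RPM for WT over 21895 genes). Spans and transcript lengths came from GENCODE M21, in which 982 gene names were not found once. Where the GENCODE and RefSeq spans of 251 low genes differed over 1.5-fold, values followed the GENCODE span (correlation across genes -0.91) more closely than that of RefSeq (-0.44). Python 3.11.15, numpy 2.4.6, pandas 2.3.3, matplotlib 3.10.9 and blastn 2.17.0 (shared stretches of at least 75 bases at 95% identity) were used, and the counting step was tested on simulated data. A gene was counted as different at 2-fold with a pseudocount of 0.1. The genes named were the 10 members, Mfn1, each list's 2 highest genes and those 2-fold different with a mean over the libraries of at least 1, and the 3 genes nearest to Cdh1 and to Gja4; 1 gene that this rule names is not reported here. Members and lists were chosen with earlier results of these data known. Promoter sequences were those of RefSeq.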

Additional observations from a re-analysis of the deposited data

How the results depend on the processing

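No paired analysis was possible because only 1 mean for each genotype was used, and for the same reason no replicate could be left out. The number of the 10 genes at least 2-fold different, 0 with 0.1 added, was 2 with a pseudocount of 0.01, as the plain ratio or at 1.5-fold, and 1 in RPM with 1 added. Among the 140 genes of the lists of related genes, the number was 3 with 0.1 added, 12 with a pseudocount of 0.01 and 15 as the plain ratio. It was 13 at 1.5-fold, 7 in RPM and 0 with a pseudocount of 1. Of the 16 list genes whose mean reached 1, 0 differed 2-fold. The shares of all genes past 2-fold were 7.65% with 0.1 added, 21.1% as the plain ratio and 6.03% in RPM. No such share was computed for pseudocounts of 0.01 or 1 or for 1.5-fold. Counts at those settings, for members and lists alike, therefore cannot be set against a background. The difference of Mfn1 was -0.61 with a pseudocount of 1. Gja4 had 19.2 times the level of the next gene per kb of the longest transcript and 106 times as deposited. Without an added value, low genes pass 2-fold more often, by construction. The scale in RPM and the RefSeq spans were chosen after seeing the data. Across 78 alternative values for single members, 71 stayed on their side of the threshold and 7, all of Cdh17 or Gjc1, passed it. Part of the 71 stayed by construction. The filters on the mean (6 and 2 members) leave a difference unchanged, and a pseudocount of 1 can only shrink it. Ctnnb1 and Ctnnd1 lay below 0 with centring and with means divided by their sum. With either, 0 members and 4 of the 140 list genes were 2-fold different. Depth per library and the spread between libraries are unknown, which limits every difference.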

Other observations

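By the plain ratio of the means, 9 of the 140 genes of the adhesion, junction and regulator lists were at least 2-fold higher in Mfn1-/- oocytes. Another 6 were at least 2-fold lower. Both were smaller shares than the 12.8% and 8.35% of all genes. The genes given here were chosen after their values were seen. Cnst, which encodes the connexin trafficking protein consortin, had 20.8 RPM (Mfn1-/-) and 42.7 (WT), the highest RPM of the 15 in WT oocytes. Fat1 had 8.45 against 22.1 RPM. In the other direction, Fscn1, which encodes the actin bundler fascin of cell protrusions, had 2.47 against 0.836 RPM, and Dbn1, which encodes drebrin, an actin-binding partner of connexin 43, had 2.86 against 1.23. The desmosomal plakophilin gene Pkp2 had 6.71 against 2.58 RPM. No library values stand behind these differences, so none can be set against the spread between pools.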
